A study of Homo sapiens with 6 samples.

Results

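The cytosolic heat shock system of THP-1 cells was followed through 10 genes, chosen by name from the 20263 genes of the expression table: the heat shock transcription factor HSF1, the HSP70 genes HSPA1A, HSPA1B and HSPA8, the HSP110 genes HSPA4 and HSPH1, the J-domain gene DNAJB1, the HSP90 genes HSP90AA1 and HSP90AB1, and the small heat shock protein gene HSPB1. All 10 were found, each in 1 row, and all 10 passed the filter on low counts. THP-1 is an established human cell line with monocyte traits, grown out of an acute myeloid leukaemia. Messenger RNA was sequenced from 3 libraries of cells carrying a short hairpin RNA against GOT1 (shGOT1, labelled as GOT1 knockdown) and from 3 libraries of cells carrying a control hairpin (shNC, labelled as wild type). No heat or other treatment is named in the labels, and they name neither another GOT1 hairpin nor a rescue, so effects of the hairpin other than the loss of GOT1 cannot be told apart from that loss. The question behind the series, per its title, is how inhibition of GOT1, the cytosolic aspartate aminotransferase, bears on ferroptosis.

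HSP70 and HSP90 are ATP-driven chaperones that bind unfolded or immature proteins in the cytosol and nucleus. J-domain proteins such as DNAJB1 bring clients to HSP70 and start its ATPase, and HSP110 proteins release the bound nucleotide so that the cycle can begin again. HSF1 is held inactive in unstressed cells in part by these chaperones. On heat or proteotoxic stress it trimerizes, binds heat shock elements, which are inverted repeats of the letters GAA, and raises transcription of HSPA1A, HSPA1B, DNAJB1 and other chaperone genes, while HSPA8 and HSP90AB1 are the constitutive members that cells express without stress. Tumour cells often depend on HSF1 and on high chaperone levels.

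The knockdown showed in every library: GOT1 stood at 3.27, 2.87 and 3.33 TPM in shGOT1 and at 15.3, 16.7 and 16.3 TPM in shNC, 5.45-fold lower by the count fit. Total counts were 26734767 to 39144890 per shGOT1 library and 26226977 to 28712260 per shNC library, and genes of the mitochondrial genome took 4.95% to 4.98% and 4.45% to 4.83% of them. All 10 monocyte markers examined were at 1 TPM or more on average, with a summed level of 1196 to 1258 TPM in shGOT1 and 1753 to 1775 TPM in shNC. Most of that gap was LYZ, the lysozyme gene (72.2 ± 10.1 against 551.7 ± 17.3 TPM). Of the 10 markers 6 were lower and 2 higher, CD33 and FCGR1A, and ITGAM and CD68 did not pass. The 10 lymphocyte markers summed to 49.5 to 55.6 and 17.9 to 21.1 TPM, with CD2, CD3E, CD3G and MS4A1 at 0 in every library. Erythroid, epithelial and fibroblast markers, each list summed on its own, came to at most 6.96 TPM in any library. These marker levels differ between the groups alongside the heat shock genes, and their part in the results below was not tested. In bulk RNA, fewer cells of a type and less RNA per cell cannot be told apart.

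The 10 genes did not move as one. HSPA1A and HSPA1B were lower in shGOT1 by about the same factor, 2.90-fold and 3.01-fold, and DNAJB1 and HSF1 itself were lower by 1.41-fold and 1.54-fold. HSPA8, HSP90AA1, HSP90AB1, HSPH1 and HSPB1 were higher, by factors from 1.14 (HSP90AB1) to 1.55 (HSP90AA1). The risers thus hold the constitutive HSPA8 and HSP90AB1 together with HSP90AA1, HSPH1 and HSPB1, which heat shock can also induce. Of the 10 genes, 5 were higher and 4 lower at an adjusted p under 0.05 when the counts were fitted with edgeR's quasi-likelihood model, and HSPA4 did not pass. Of all 13735 genes tested, 44.6% passed this threshold, 21.9% higher and 22.8% lower. The median absolute log2 fold change was 0.42 over the 10 genes and 0.25 over all genes tested, and the signed medians were 0.12 and 0.00. In TPM the shGOT1 and shNC ranges were apart for each of the 10 genes, with 6 higher and 4 lower. The ranges of 55.2% of all tested genes were apart, 36.4% higher and 18.8% lower, so groups lying apart is common in these libraries. Levels below are the deposited TPM (transcript levels corrected for length and brought to the same total in each library), and fold changes are shGOT1 over shNC from the fit with the standard error (SE). Rises made up 49.0% of the calls in that fit and 66.5% of those with limma on log2(TPM + 1). After the TPM had been rescaled by median of ratios the share with limma was 48.9%, so it moved with the scaling between libraries.

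**Figure D1:**
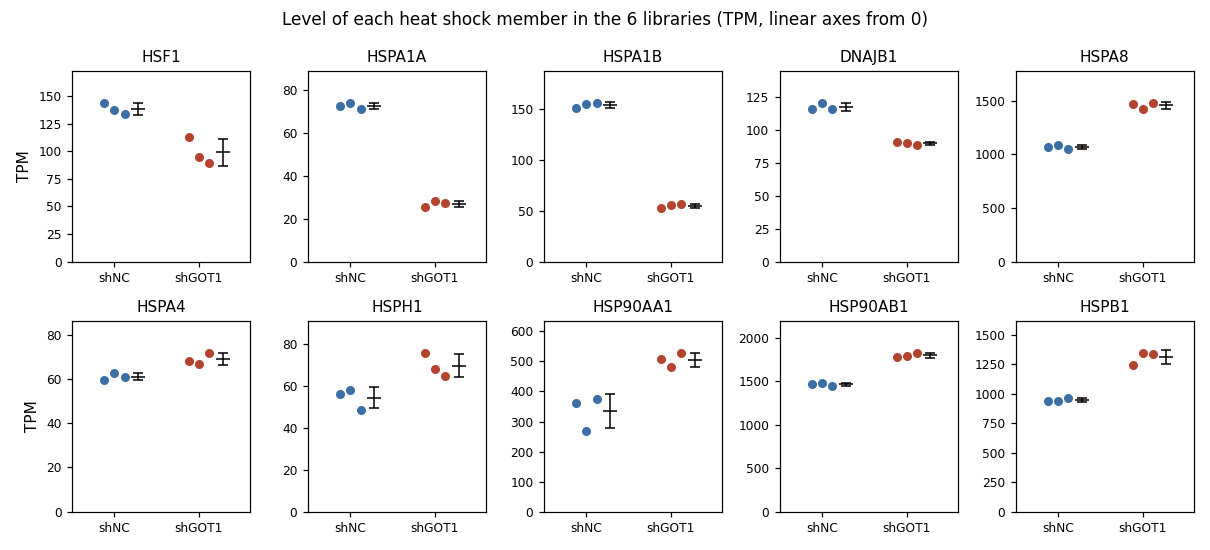
TPM of each of the 10 genes in the 3 shNC (blue) and 3 shGOT1 (red) libraries, on linear axes from 0, with bars for mean ± SD (n = 3 per group). HSF1, HSPA1A, HSPA1B and DNAJB1 lie lower in all 3 shGOT1 libraries and the other 6 genes lie higher.

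The promoters of 5 of these genes are shown because HSF1 acts through the repeats they hold, and because they include 3 genes that fell (HSPA1A, HSPA1B, DNAJB1) and 2 that rose (HSPA8, HSP90AA1). Each line gives the 250 bases upstream of a RefSeq start site (GRCh38.p14), 5′ to 3′ on the strand of the gene, with capitals marking matches to GAANNTTC or TTCNNGAA, the inverted pairs of a heat shock element. Each of these motifs is its own reverse complement, so both strands are covered, and overlapping matches are joined. The windows are chr6:31815293-31815542 (plus strand) for HSPA1A, chr6:31827488-31827737 (plus) for HSPA1B, chr19:14518398-14518647 (minus) for DNAJB1, chr11:123062137-123062386 (minus) for HSPA8 and chr14:102087045-102087294 (minus) for HSP90AA1. For DNAJB1 and HSP90AA1, which have several start sites in RefSeq, the window that holds a match is shown.
HSPA1A: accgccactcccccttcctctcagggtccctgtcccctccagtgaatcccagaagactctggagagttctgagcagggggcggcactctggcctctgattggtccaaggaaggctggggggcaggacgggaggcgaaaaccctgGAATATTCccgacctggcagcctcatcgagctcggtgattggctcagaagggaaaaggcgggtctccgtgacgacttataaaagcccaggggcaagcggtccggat
HSPA1B: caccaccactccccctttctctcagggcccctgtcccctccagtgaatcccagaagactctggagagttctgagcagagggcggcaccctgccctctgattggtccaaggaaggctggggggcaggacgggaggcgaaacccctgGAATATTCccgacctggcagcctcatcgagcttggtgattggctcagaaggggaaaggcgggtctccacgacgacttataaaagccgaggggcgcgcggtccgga
DNAJB1: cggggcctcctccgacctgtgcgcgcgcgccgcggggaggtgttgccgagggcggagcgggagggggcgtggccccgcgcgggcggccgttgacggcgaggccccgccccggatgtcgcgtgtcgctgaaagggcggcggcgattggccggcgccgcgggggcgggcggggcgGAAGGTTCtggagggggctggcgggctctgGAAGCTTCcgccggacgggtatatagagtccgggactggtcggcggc
HSPA8: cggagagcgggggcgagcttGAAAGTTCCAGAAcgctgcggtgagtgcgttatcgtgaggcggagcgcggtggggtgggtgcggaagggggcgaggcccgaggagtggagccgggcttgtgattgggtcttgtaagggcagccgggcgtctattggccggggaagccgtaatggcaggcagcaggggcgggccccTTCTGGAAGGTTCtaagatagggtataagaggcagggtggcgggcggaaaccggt
HSP90AA1: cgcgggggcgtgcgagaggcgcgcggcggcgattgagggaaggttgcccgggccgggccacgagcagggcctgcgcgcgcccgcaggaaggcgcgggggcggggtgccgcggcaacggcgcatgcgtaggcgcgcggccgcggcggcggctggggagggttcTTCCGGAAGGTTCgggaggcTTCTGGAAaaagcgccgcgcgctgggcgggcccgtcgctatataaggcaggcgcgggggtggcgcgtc

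In HSPA1A and HSPA1B the same 8 letters, GAATATTC, begin 106 and 105 bases upstream of the start site, and the windows of the 2 genes are identical at 235 of 249 aligned bases (94.4%). DNAJB1 holds 2 separate pairs, beginning 77 and 47 bases upstream. HSPA8 holds 2 triple repeats (GAANNTTCNNGAA or its reverse complement TTCNNGAANNTTC), beginning 230 and 55 bases upstream, and HSP90AA1 holds 1 triple repeat 88 bases upstream with a further pair at 68. RefSeq windows were found for 9 of the 10 genes, 14 windows in all, and not for HSF1. A pair was found in 7 of the 9 genes, including HSP90AB1 and HSPB1, and a triple repeat in 3, HSPA8, HSP90AA1 and HSP90AB1. Neither was found in the windows of HSPA4 and HSPH1. Counted by window, 7 of these 14 hold a pair and 3 of 14 a triple repeat. Over all 35116 RefSeq windows of the same length, 11.6% hold a pair and 0.441% a triple repeat. Matches were thus present both in genes that fell and in genes that rose, and a match is a string of letters, not a measured binding site.

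HSF1 (ENSG00000185122, chromosome 8, 144291591 to 144314722, plus strand) stood at 112.7, 95.0 and 89.6 TPM in the shGOT1 libraries and at 144.3, 138.0 and 133.7 TPM in the shNC libraries. The groups did not overlap, and shGOT1 replicate 1 was nearest to the controls. The log2 fold change was -0.63 (adjusted p = 0.00726 in edgeR, SE 0.121), with an SE larger than that of every other one of the 10 genes except HSP90AA1. Without shGOT1 replicate 1 it was -0.78. HSF1 shares 139 bases at its 3′ end with DGAT1, an acyltransferase gene on the other strand, and whether counting used the strand is not given in the sources used here. DGAT1 itself stood at 103 to 111 TPM in shGOT1 and 97.3 to 98.2 TPM in shNC, and its counts changed by 0.02 on the log2 scale (adjusted p = 0.7 in edgeR). Of the 20 tested genes nearest to HSF1 on the chromosome, 5 were higher and 5 lower, with a median log2 fold change of 0.04.

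Of 13 tested genes in the list of other heat shock factors and regulators of HSF1, 3 were higher and 2 lower. The shares of all tested genes were 21.9% higher and 22.8% lower. HSF2, a second heat shock factor, rose from 13.1 ± 0.406 to 17.4 ± 1.22 TPM (log2 fold change 0.30, adjusted p = 0.0171 in edgeR). HSF2BP, an HSF2-binding protein gene, rose at low level, from 1.06 TPM in shNC to 2.73 TPM in shGOT1. HDAC6, a deacetylase that senses protein aggregates, fell by 0.27 and FBXW7, a ubiquitin ligase subunit that targets HSF1, fell by 0.26. HSF4 stood at 19.4 against 24.6 TPM and did not pass (adjusted p = 0.149 in edgeR).

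HSPA1A (ENSG00000204389, chromosome 6, 31815464 to 31817946, plus strand) and HSPA1B (ENSG00000204388, chromosome 6, 31827735 to 31830255, plus strand) encode the stress-inducible HSP70 and lie 9788 bases apart. HSPA1A stood at 25.4, 28.1 and 27.4 TPM in shGOT1 and at 72.7, 74.3 and 71.5 TPM in shNC. HSPA1B stood at 52.7, 55.9 and 56.1 TPM in shGOT1 and at 150.8, 154.9 and 156.1 TPM in shNC. In both genes the 3 libraries of a group lie close together and the groups are far apart. HSPA1A and HSPA1B gave log2 fold changes of -1.54 (adjusted p = 8.58e-06 in edgeR, SE 0.0495) and -1.59 (adjusted p = 4.70e-06 in edgeR, SE 0.0366). A change at least as large in either direction was seen in 3.52% and 3.24% of all genes tested.

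The coding sequences of the 2 genes, taken as the longest open reading frame of their GENCODE 29 transcripts, differ at 4 of 1926 bases, with a stretch of 1709 bases without a difference. How the authors' counting divided reads between them is therefore uncertain, and the pair was also fitted as 1 gene. Summed, they stood at 78.1, 83.9 and 83.5 TPM in shGOT1 and at 223.5, 229.1 and 227.6 TPM in shNC, and the log2 fold change of the summed counts was -1.57 (adjusted p = 4.96e-06 in edgeR, SE 0.0365), a level 2.98-fold lower. The TPM ratio of HSPA1B to HSPA1A was 2.07, 1.99 and 2.05 in the shGOT1 libraries and 2.07, 2.09 and 2.18 in the controls, so the division between the 2 rows was nearly the same in every library. Of the 19 other tested genes nearest to HSPA1A, 2 were higher and 7 lower, with a median log2 fold change of -0.20.

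The most strictly heat-inducible HSP70 gene, HSPA6, is not among the 10 but belongs to the list of other HSP70 genes. It stood at 5.77, 6.79 and 5.70 TPM in shGOT1 and at 35.1, 37.2 and 38.6 TPM in shNC. Its log2 fold change of -2.70 (adjusted p = 9.36e-06 in edgeR, SE 0.0889) had the sign of those of HSPA1A and HSPA1B and a greater size, and the difference in size was not tested. Of the 20 tested genes nearest to HSPA6 on chromosome 1, 1 was higher and 7 lower, with a median log2 fold change of -0.26. HSPA6 has a near-identical copy, HSPA7, so its value is uncertain to that extent. Of the 6 tested genes of this list it was the only one lower, and 3 were higher. The shares of all tested genes were 22.8% lower and 21.9% higher. HSPA2, a testis-enriched HSP70, rose from 4.01 ± 0.404 to 7.75 ± 0.565 TPM (log2 fold change 0.84, adjusted p = 0.00136 in edgeR). HSPA4L, an HSP110 gene, rose from 1.61 to 4.23 TPM (1.29). HSPA14, a ribosome-associated HSP70 that overlaps CDNF and AC069544.2, rose by 0.20.

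HSPA8 (ENSG00000109971, chromosome 11, 123057489 to 123063230, minus strand), the constitutive HSP70, stood at 1468, 1421 and 1485 TPM in shGOT1 and at 1073, 1085 and 1052 TPM in shNC. Every shGOT1 library lay above every control. The log2 fold change was 0.33 (adjusted p = 8.29e-05 in edgeR, SE 0.0207). Set against HSPA8 within each library, a measure that does not depend on how libraries were scaled to each other, the summed inducible pair stood at a ratio of 0.0532, 0.0591 and 0.0562 in the shGOT1 libraries, against 0.208, 0.211 and 0.216 in the controls. The ratio was 3.78-fold lower in shGOT1, a log2 difference of -1.92 (exact permutation test, 2-sided, p = 0.1, which is the smallest p that 3 against 3 allows). On the counts in place of TPM the log2 difference was -1.91.

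**Figure D2:**
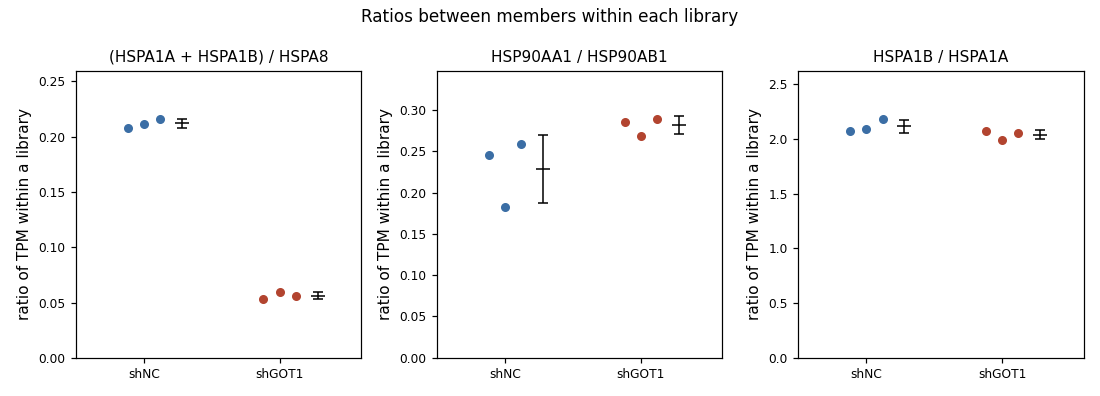
Ratios of TPM within each library for the inducible pair over HSPA8, for HSP90AA1 over HSP90AB1 and for HSPA1B over HSPA1A, in 3 shNC (blue) and 3 shGOT1 (red) libraries with mean ± SD. The first ratio falls from about 0.212 to 0.0562, the second is higher in every shGOT1 library, and the third stays near 2.04 to 2.11.

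HSPA4 (ENSG00000170606, chromosome 5, 133051962 to 133106449, plus strand), an HSP110 nucleotide exchange factor, stood at 68.1, 66.9 and 71.8 TPM in shGOT1 and at 59.6, 62.8 and 60.7 TPM in shNC. The groups did not overlap in TPM, but the log2 fold change from the counts was 0.05 (adjusted p = 0.261 in edgeR, SE 0.0325). Its call changed with the scaling of the libraries. With limma it passed upward on log2(TPM + 1) (0.17, adjusted p = 0.0203), on log2(FPKM + 1) (0.13, adjusted p = 0.0411) and with the other pseudocounts, and it did not pass once TPM had been rescaled by median of ratios. The share of all tested genes that passed was 42.1%, 40.4% and 39.1% with limma on TPM, on FPKM and on rescaled TPM. On the deposited TPM the median log2 fold change of all tested genes was 0.09 with a pseudocount of 1 and 0.11 with a pseudocount of 0.1. In the count fit that median was 0.00. HSPA4, at 0.17 on log2(TPM + 1), lay above the median there, and after median-of-ratios rescaling it stood at 0.07.

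HSPH1 (ENSG00000120694, chromosome 13, 31134974 to 31162388, minus strand), the HSP110 gene that heat shock induces, stood at 76.0, 68.5 and 65.1 TPM in shGOT1 and at 56.5, 58.2 and 48.8 TPM in shNC. The groups did not overlap, though their nearest libraries, at 58.2 and 65.1 TPM, are closer to each other than the extremes within either group. The log2 fold change was 0.26 (adjusted p = 0.00529 in edgeR, SE 0.0463). The call was lost with limma on TPM rescaled by median of ratios (0.25, adjusted p = 0.07). Of 9 tested exchange factors and regulators of HSP70 outside the 10 genes, 4 were higher and 1 lower. The shares of all tested genes were 21.9% higher and 22.8% lower. BAG2, an inhibitor of the ubiquitin ligase CHIP, rose from 2.22 ± 0.495 to 5.11 ± 0.413 TPM (log2 fold change 1.10), HSPBP1 rose by 0.23, BAG3, which links HSP70 to selective autophagy, rose by 0.21, and BAG1 rose by 0.14. BAG6, a chaperone of membrane protein precursors, was called lower from its counts (-0.20), while its TPM of 289 ± 13.3 in shGOT1 and 294 ± 14.0 in shNC overlapped. BAG2 overlaps RAB23 and BAG6 overlaps APOM.

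DNAJB1 (ENSG00000132002, chromosome 19, 14514770 to 14529770, minus strand), the main heat-inducible J-domain partner of HSP70, stood at 91.2, 90.0 and 88.6 TPM in shGOT1 and at 116.0, 120.9 and 115.8 TPM in shNC. All shGOT1 libraries lay below all controls, with little spread in either group. The log2 fold change was -0.50 (adjusted p = 8.73e-05 in edgeR, SE 0.0315). It shares 211 bases with TECR, a gene on the other strand whose log2 fold change was -0.17 (adjusted p = 0.0017 in edgeR). Among 18 tested genes of a chosen list of other J-domain genes, 3 were higher and 5 lower, with a median of -0.05. The list does not hold the whole family, and DNAJA3 and DNAJC19 were counted with the mitochondrial chaperones. The shares of all tested genes were 21.9% higher and 22.8% lower. DNAJA1, a heat-inducible partner of HSP70, rose from 141.1, 141.9 and 144.1 TPM in shNC to 214.0, 210.1 and 220.3 TPM in shGOT1 (log2 fold change 0.49, adjusted p = 3.64e-05 in edgeR, SE 0.0242). DNAJA4, which overlaps WDR61, rose by 0.51, DNAJB2 fell by 0.49, and DNAJC8, a splicing-associated member, fell by 0.84. DNAJC8 lies on chromosome 1 in a stretch where 18 of the 20 nearest tested genes were lower, with a median log2 fold change of -0.88.

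HSP90AB1 (ENSG00000096384, chromosome 6, 44246166 to 44253888, plus strand), the constitutive HSP90, had the highest level of the 10 genes in both groups, at 1772, 1792 and 1825 TPM in shGOT1 and 1471, 1478 and 1442 TPM in shNC. The groups did not overlap. The log2 fold change was small and precise, 0.19 (adjusted p = 0.000566 in edgeR, SE 0.0191), and 60.0% of all tested genes changed at least as much in either direction.

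HSP90AA1 (ENSG00000080824, chromosome 14, 102080738 to 102139699, minus strand), the stress-responsive HSP90, stood at 506.2, 481.9 and 528.3 TPM in shGOT1 and at 360.7, 269.2 and 373.8 TPM in shNC. Its log2 fold change was 0.63 (adjusted p = 0.0153 in edgeR, SE 0.147), with the largest SE of the 10 genes. In TPM the library that stands apart is shNC replicate 2, which is low. In CPM (counts scaled to the total of the library) the gene stood at 641.6, 636.9 and 924.7 in shGOT1 and 449.7, 460.5 and 453.8 in shNC, and there the library that stands apart is shGOT1 replicate 3, which is high. Without shGOT1 replicate 3 the log2 fold change was 0.42 (adjusted p = 0.000286 in edgeR), with the same direction and a smaller size. Without shGOT1 replicate 1 or 2 it was 0.72 (adjusted p = 0.019 in edgeR for each). Leaving out a control library gave 0.62 to 0.64, with adjusted p of 0.0435 to 0.0479 in edgeR, close to the threshold.

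The difference between the units can be read from the transcript length that the count and FPKM of a library imply (count over FPKM and the library total). For HSP90AA1 it was 2795, 2905 and 3882 bases in shGOT1 against 2681, 3681 and 2606 bases in shNC, so shGOT1 replicate 3 and shNC replicate 2 differ from the other 4 libraries. The highest was 1.49 times the lowest, where the median of this factor was 1.08 among 10160 genes averaging 5 TPM or more and 5.22% of them exceeded 1.5. For HSPA1A, HSPA1B, HSPA8, HSP90AB1, DNAJB1 and HSPB1 this ratio was between 1.00 and 1.02, and it was 1.04 for HSPA4, 1.12 for HSF1 and 1.15 for HSPH1. The table gives 1 value per gene, so which transcripts of HSP90AA1 the lengths came from was not tested.

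**Figure D3:**
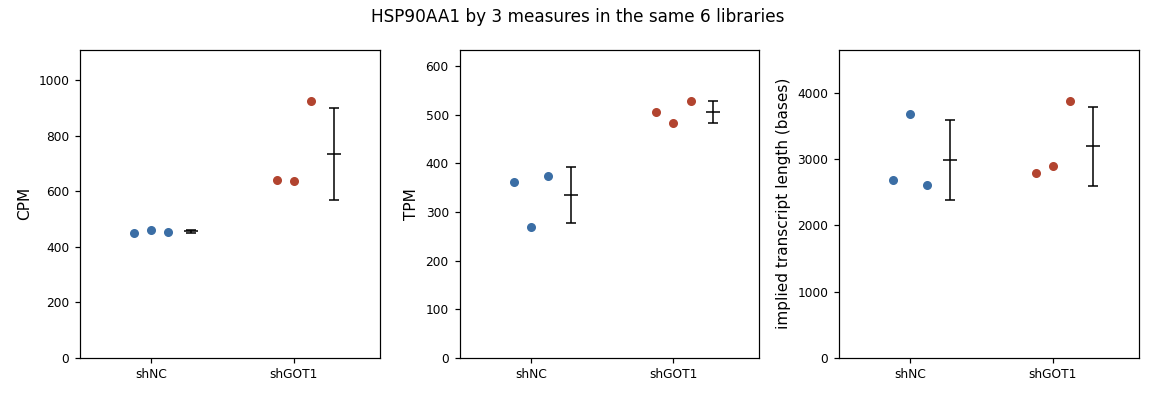
HSP90AA1 as CPM, as TPM and as the transcript length in bases that count and FPKM imply, in 3 shNC (blue) and 3 shGOT1 (red) libraries with mean ± SD. CPM sets shGOT1 replicate 3 apart (924.7), TPM sets shNC replicate 2 apart (269.2), and the implied length is high in those 2 libraries.

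Within libraries, the TPM ratio of HSP90AA1 to HSP90AB1 came to 0.286, 0.269 and 0.289 in the shGOT1 libraries against 0.245, 0.182 and 0.259 in the controls, a log2 difference of 0.31 (exact permutation test, 2-sided, p = 0.1, the smallest that 3 against 3 allows). Without shNC replicate 2 the difference was 0.16, and from counts it was 0.42, so its size moved with the unit and with that library. Of 23 tested cochaperones of HSP90, 10 were higher and 4 lower, with a median of 0.09. The shares of all tested genes were 21.9% higher and 22.8% lower. CACYBP rose from 74.0 ± 11.3 to 111.7 ± 15.8 TPM (log2 fold change 0.49, adjusted p = 0.0411 in edgeR). RUVBL1, an ATPase of the R2TP complex that overlaps EEFSEC and SEC61A1, rose by 0.39 and CHORDC1, a heat-inducible cochaperone, rose by 0.36. NUDC, a nuclear migration protein with a cochaperone role that overlaps NR0B2 and GPATCH3, fell by 0.43. It lies on chromosome 1 in a stretch where 14 of the 20 nearest tested genes were lower, with a median of -0.59.

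HSPB1 (ENSG00000106211, chromosome 7, 76302544 to 76304295, plus strand) encodes HSP27, an ATP-independent small heat shock protein that holds unfolding proteins and binds actin. It stood at 1244, 1349 and 1341 TPM in shGOT1 and at 943.6, 936.3 and 967.9 TPM in shNC. The groups did not overlap, and shGOT1 replicate 1 was the lowest of its group. The log2 fold change was 0.35 (adjusted p = 0.00064 in edgeR, SE 0.0367). Of 10 other small heat shock protein genes 4 passed the filter, and 2 of these were higher, HSPB11 (0.18) and HSPB7 (1.41, from 0.847 to 2.69 TPM). Among all tested genes 21.9% were higher. Of the 20 tested genes nearest to HSPB11 on chromosome 1, 9 were higher and 2 lower, with a median of 0.22. HSPB7 is below the level at which genes of the lists were to be named and was added after its value was seen.

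**Figure D4:**
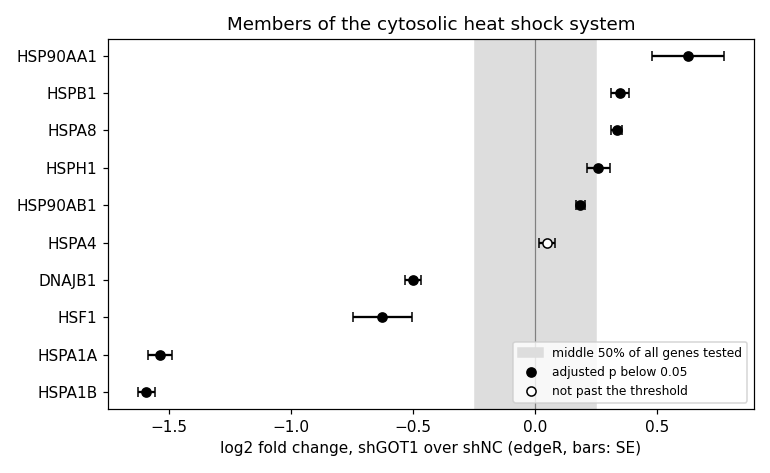
Log2 fold change of shGOT1 over shNC for the 10 genes from edgeR, with bars for the SE, filled where the adjusted p was under 0.05. The grey band is the middle 50% of all tested genes, from -0.25 to 0.25, and HSPA1A and HSPA1B lie farthest from it.

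The order of levels within a group differed between the groups. In shNC the order by mean TPM was HSP90AB1, HSPA8, HSPB1, HSP90AA1, HSPA1B, HSF1, DNAJB1, HSPA1A, HSPA4 and HSPH1, and no neighbours in that order had overlapping ranges. In shGOT1 HSPA1B moved from rank 5 to 9 and HSPA1A from 8 to 10, below HSPH1 and HSPA4, and the ranges of HSF1 and DNAJB1 and of HSPH1 and HSPA4 overlapped. The 10 genes together made up 5416, 5448 and 5577 TPM in shGOT1 and 4448, 4378 and 4423 TPM in shNC. HSP90AB1, HSPA8 and HSPB1 held 32.8%, 26.6% and 23.9% of that sum in shGOT1 and 33.1%, 24.2% and 21.5% in shNC. HSPA1A and HSPA1B held 0.492% and 1.00% in shGOT1 and 1.65% and 3.49% in shNC, so the sum rose while the share of these 2 genes fell.

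Chaperones outside the HSP70 and HSP90 systems were examined in 2 lists. Of 15 tested subunits of the TRiC chaperonin, which folds actin and tubulin, and of prefoldin, which delivers clients to it, 7 were higher and 2 lower (median log2 fold change 0.12). CCT2 rose by 0.45, CCT6A by 0.27 and CCT7 by 0.25, and PFDN5 fell by 0.27. Of 12 mitochondrial chaperone genes 4 were higher and none lower (median 0.11). Among all tested genes 21.9% were higher and 22.8% lower, and whether either list departs from these shares was not tested. HSPE1, which encodes the mitochondrial cochaperonin HSP10, rose from 236.5, 238.7 and 239.6 TPM in shNC to 379.7, 375.6 and 360.5 TPM in shGOT1 (log2 fold change 0.53, adjusted p = 6.87e-05 in edgeR, SE 0.0315), and its partner HSPD1 rose by 0.24. HSPD1 and HSPE1 overlap each other and HSPE1-MOB4, and HSPD1 also overlaps MOB4. Of the 20 tested genes nearest to HSPD1, 6 were higher and 2 lower, with a median of 0.23. The mitochondrial HSP70 gene HSPA9 rose by 0.18 and DNAJC19 by 0.30. DNAJC19 lies on chromosome 3 in a stretch where 15 of the 20 nearest tested genes were higher and 1 lower, with a median of 0.31.

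A list of 28 further genes that heat shock induces through HSF1 in human cells shares genes with the lists above. Of its 26 tested members 13 were higher and 3 lower, beside 21.9% and 22.8% of all tested genes. The median was 0.19, against 0.00 over all tested genes. The 3 lower ones were HSPA6, ATF3 and RGS2. ATF3, a stress-induced transcription factor that other stress pathways also induce, fell from 10.8 ± 2.09 to 5.62 ± 1.07 TPM (log2 fold change -1.10, adjusted p = 0.019 in edgeR, SE 0.275), and RGS2 fell by 0.38. Chaperones and cochaperones of this list, such as DNAJA1, HSPE1, CCT2, CHORDC1 and HSPA2, were among the 13 that rose. The list holds none of the 10 genes, which include HSPA1A, HSPA1B and DNAJB1, and the activity of HSF1 was not tested.

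**Figure D5:**
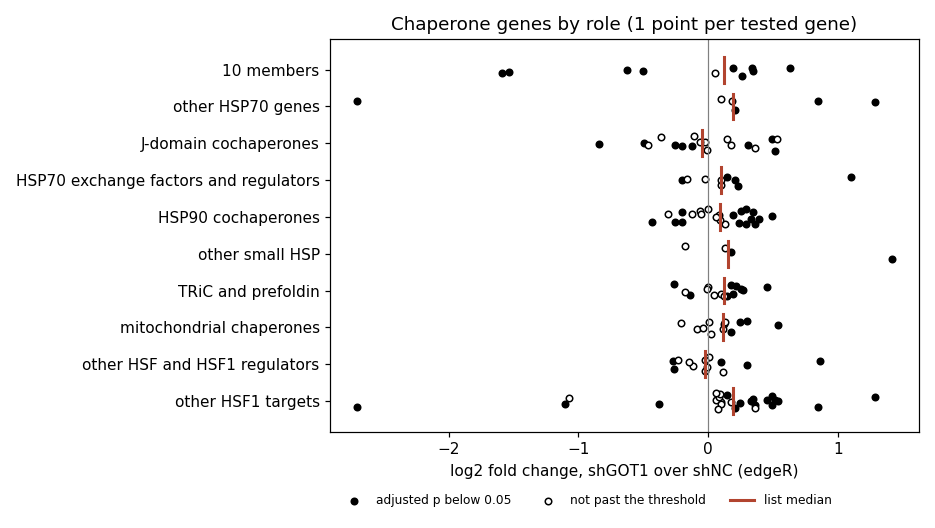
Log2 fold change (shGOT1 over shNC, edgeR) of every tested gene of the 10 genes and of 9 lists of chaperones and regulators, filled where the adjusted p was under 0.05, with the list median as a red line. HSPA6 at -2.70 is the leftmost point and belongs to 2 lists, and list medians run from -0.05 to 0.19.

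Over the 6 libraries, the genes whose log2(TPM + 1) was most like that of the summed HSPA1A and HSPA1B, among 10162 genes averaging 5 TPM or more, were LY86, PTGER4 and FUCA1 (Pearson r = 0.99997, 0.99973 and 0.99965). These 6 points form 2 groups, and 278 genes had an r of at least 0.99, so the likeness mainly restates a lower level in shGOT1. LY86, a coreceptor of a Toll-like receptor homologue, stood at 34.0, 36.6 and 36.3 TPM in shGOT1 and at 87.6, 89.0 and 89.0 TPM in shNC.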

How the data were processed

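Poly(A)-selected RNA of 6 THP-1 libraries, 3 per group, was measured, and columns were assigned by the library names in the labels. FastQC, Trimmomatic, StringTie and DESeq2 were used by the authors, per the submitters' processing notes. The aligner, tool versions, build, strand setting and the way reads became counts are not stated in the labels. The table deposited by the authors holds counts, which are whole and not normalized. The TPM deposited by the authors are scaled to length and to a fixed total, and the FPKM deposited by the authors to length and depth. Coordinates of all 10 genes are identical in GENCODE 29 (GRCh38).

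The counts were fitted with edgeR 4.0.16 in R 4.3.3 (filterByExpr, TMM, estimateDisp, glmQLFit, glmQLFTest), over all 6 samples without covariates, 2-sided, with Benjamini-Hochberg adjustment over 13735 genes at 0.05. The SE is the log2 fold change over the root of F. The steps were tested on simulated data with the same dispersion for every gene and as many rises as falls. Far fewer genes changed there than were called here, so the simulation does not test the scaling between these libraries. Alternatives were DESeq2 1.42.0, DESeq2 size factors, no filter, a floor of 5 TPM on the mean, a replicate block, leaving out each library, dropping genes of the mitochondrial genome together with the 20 highest genes, and limma 3.58.1 on log2 TPM with pseudocounts of 1, 0.1 and 5, on log2(FPKM + 1) and after median-of-ratios scaling.

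The 10 genes, the 9 lists and the rules were chosen with earlier results of these data known. Named genes are the 10, GOT1, up to 4 called genes per list with the largest changes, averaging 5 TPM or more where they were higher, and the 3 genes most like the summed pair; others named were added to fill out a count. Total counts of 26226977 to 39144890 set the counting error. No replicates were duplicates of each other: between libraries of a group, chi-square over its degrees of freedom was 17.5 to 20.6. The labels call them biological replicates without saying what was separate, so the p-values rest on a spread that may be technical. Reads of near-identical paralogs and pseudogenes, and of overlapping genes, could be split between rows.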

Additional observations from a re-analysis of the deposited data

How the results depend on the processing

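The 4 falls (HSF1, HSPA1A, HSPA1B and DNAJB1) passed under all 17 alternatives, with the same direction. The number of the 10 genes called higher was 5 in the main analysis, 4 without genes of the mitochondrial genome and the 20 highest genes, because HSP90AB1 is 1 of those left out, 6 with limma on TPM or FPKM, where HSPA4 was added, and 4 with limma after median-of-ratios scaling of TPM, where HSPH1 was lost (adjusted p = 0.07); the cause of that loss was not tested. Over all genes, 4939 to 6118 passed against 6128. The number of genes tested differed, and the shares were 35.7% to 48.6% against 44.6%. The lowest count came from the floor of 5 TPM, which had the highest share. The share of calls that were higher was 49.0%, against 66.5% with limma on log2(TPM + 1), 60.5% on log2(FPKM + 1) and 48.9% on TPM rescaled by median of ratios. Leaving out single libraries moved HSP90AA1 from 0.42 to 0.72 and HSF1 from -0.78 to -0.55. The pair fitted as 1 gene ranged from -1.60 to -1.42. No flag on single samples was possible with 3 per group.

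Deviations of same-numbered libraries from their group means correlated at 0.0295, 0.0386 and 0.00124. The same-numbered control was the best match for shGOT1 replicates 1 and 2, while replicate 3 correlated best with shNC replicate 2 (0.00688). Correlations this small cannot settle whether the numbers pair the samples. With the replicate number as a block, 5222 genes passed, and the 10 genes gave 5 higher and 4 lower; the pair as 1 gene gave -1.58. The ratios come from no fit, so no block applies to them.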
